A study of Arabidopsis thaliana with 6 samples.

Results

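The genes described are 10 transcription factor genes of the Arabidopsis thaliana pollen tube, taken by their locus identifiers from the 33323 genes counted in each library. They are the R2R3-MYB genes MYB97 (AT4G26930), MYB101 (AT2G32460) and MYB120 (AT5G55020), the WRKY genes WRKY2 (AT5G56270) and WRKY34 (AT4G26440), and the MIKC*-type MADS-box genes AGL30 (AT2G03060), AGL65 (AT1G18750), AGL66 (AT1G77980), AGL94 (AT1G69540) and AGL104 (AT1G22130). All 10 had enough reads to be tested, with 75 to 15831 reads per gene and library. RNA was sequenced from 3 samples of paps1-1 and 3 samples of wild type, each a piece of style with the pollen tubes that had grown in it. paps1-1 is a mutant allele of PAPS1, a nuclear poly(A) polymerase, carried in the Col-0 accession, and the wild type was Col-0. The labels give no age, and they do not say whether the pollen, the style or both carried paps1-1. Only the wild-type samples are labelled as biological replicates, so the p-values rest on a spread that may be technical.

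MYB97, MYB101 and MYB120 act redundantly in the pollen tube, where they are needed for the tube to stop growing and release its sperm in the ovule. They belong to the GAMYB-like group, whose transcripts carry a site complementary to the microRNA miR159. WRKY34 and WRKY2 act redundantly in developing pollen, and WRKY34 is phosphorylated by the mitogen-activated protein kinases MPK3 and MPK6. MIKC* proteins bind DNA as heterodimers of an S-class partner, here AGL66 or AGL104, and a P-class partner, here AGL30, AGL65 or AGL94, and they drive much of the late pollen transcriptome.

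Reads counted in genes came to between 4541233 and 18717968 in the paps1-1 libraries and between 13707799 and 21031017 in the wild-type libraries. Levels are given as CPM, reads of a gene scaled by library size and TMM factors to a common total. A count of 3 reads, taken here as the floor, stood for 0.152 to 0.638 CPM. The TMM factors of replicates 1, 2 and 3 were 1.118, 1.036 and 1.058 in paps1-1 and 0.922, 1.197 and 0.7395 in wild type. They raise levels in wild-type replicate 3 relative to those in wild-type replicate 2. In paps1-1 replicate 2, the shallowest library, 74.6% of all reads mapped to several places, against 7.28% to 28.0% in the other 5. Wild-type replicate 3 stood apart in its markers. The mean log2 CPM of 12 vegetative pollen markers less that of 6 tested style markers was 6.63 to 6.86 in paps1-1, 6.92 and 6.73 in wild-type replicates 1 and 2, and 8.11 in wild-type replicate 3. All 12 pollen markers were tested, and their summed level was 31485 to 49266 CPM in paps1-1 and 30507 to 80061 CPM in wild type. Of 12 style and transmitting tract markers 6 were tested, with a summed level over all 12 of 31.9 to 37.8 CPM in paps1-1 and 23.5 to 35.1 CPM in wild type. HEC1, HEC2 and CRC had no read in any library. Among the 6 tested, NGA2 had 3 reads and STY2 had 2 reads in paps1-1 replicate 2, so the style side of the marker difference rests partly on counts near the floor. In such bulk samples, fewer cells of a type and less RNA per cell cannot be told apart.

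The microRNA site of the MYB genes is shown because all 3 share it and the other 7 regulators have no match as close in their coding sequence. Mature miR159a comes from chr1:27713234-27713254 (minus strand; sequences and TAIR10.1 coordinates from RefSeq) and its seed, bases 2 to 8, is in capitals. Each site is the best match in the coding sequence of the gene, 21 bases within 1 coding exon. Capitals mark bases that differ from the exact complement of miR159a, so a G:U pair counts as a difference.
miR159a: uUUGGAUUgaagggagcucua
MYB97: ATgagctcTcttcaaAccaaa
MYB101: tagagctTccttcaaAccaaa
MYB120: AGCagctcccttcaaAccaaa
MYB33: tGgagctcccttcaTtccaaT
The site of MYB97 lies at chr4:13528587-13528607 (plus strand), that of MYB101 at chr2:13783168-13783188 (minus strand) and that of MYB120 at chr5:22324982-22325002 (minus strand). MYB101 had 2 such differences and MYB97 and MYB120 had 4 each, with 1 of them opposite the seed in every case. MYB33 (chr5:1839579-1839599, plus strand), a GAMYB-like gene outside the 10, had 3. The best matches in the WRKY and MIKC* coding sequences had 8 to 10 differences. The mature microRNA was not measured.

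The first question was whether the regulators differed between paps1-1 and wild type. Of the 10, 1 passed the test. AGL104, an S-class MIKC* gene, fell by 1.15 on the log2 scale (SE 0.25, n = 3 per genotype), to 0.450 times its wild-type level, with a Benjamini-Hochberg adjusted p of 0.0193 in edgeR's quasi-likelihood test across 18317 genes. The other 9 did not pass, although all 10 log2 fold changes were negative, with a median of -0.78, against a median of 0.029 over all genes tested, of which 46.5% were negative. Of all genes tested, 2.34% were called in either direction, with 1.18% lower and 1.16% higher. DESeq2 called 2 of the 10, AGL104 and WRKY2, and 3.39% of all genes. Without a filter on low counts edgeR called 4, AGL104, AGL94, AGL66 and WRKY2, and 3.97% of all genes. At an unadjusted p under 0.05 there were 6 of the 10 regulators, all lower, beside 10.3% of all genes in either direction and 6.05% lower. The groups of libraries did not overlap for 4 of the 10, again all lower, beside 14.7% of all genes and 7.82% lower.

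**Figure D1:**
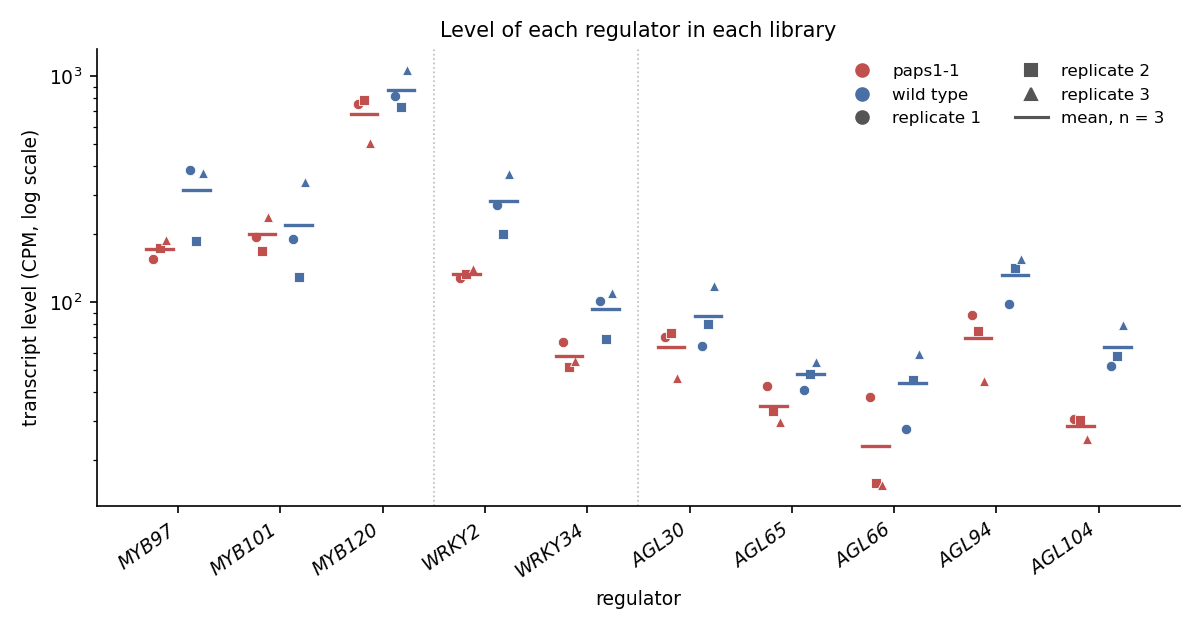
Level of each regulator in CPM (log scale) in every library, paps1-1 in red to the left of wild type in blue, with a symbol per replicate and a line at the mean of 3. The 3 paps1-1 values lay below all wild-type values for WRKY2, WRKY34, AGL94 and AGL104. At these TMM-scaled levels wild-type replicate 3 (blue triangle) was the highest library for 9 of the 10 genes.

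Among the MYB genes, MYB97 had 155, 175 and 188 CPM in the paps1-1 libraries, against 385, 187 and 376 CPM in the wild-type libraries. The paps1-1 values lay close together, and wild-type replicate 2 stood at the same level as the highest of them. The log2 fold change was -0.87 (SE 0.31), with an adjusted p of 0.242. Without wild-type replicate 2 it was -1.14 and passed (adjusted p = 0.0460). MYB120 had 755, 783 and 506 CPM in paps1-1 and 816, 736 and 1068 CPM in wild type, with groups that overlapped and a log2 fold change of -0.36 (SE 0.32, adjusted p = 0.829). It was -0.19 without paps1-1 replicate 3 and -0.22 without wild-type replicate 3. MYB101 had 195, 169 and 240 CPM in paps1-1, against 191, 129 and 342 CPM in wild type, so that the lowest and the highest library were both wild type. Its log2 fold change was -0.13 (SE 0.34, adjusted p = 0.960), and it was 0.30 without wild-type replicate 3. These adjusted p-values and those given for WRKY and MIKC* genes come from the same edgeR test over all genes.

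Both WRKY genes had lower values in every paps1-1 library than in any wild-type library. WRKY2 had 128, 134 and 141 CPM in paps1-1 and 270, 202 and 372 CPM in wild type. It had the smallest relative spread of the 10 within paps1-1, at 134 ± 6.20 CPM (SD, n = 3), and averaged 281 ± 85.6 CPM in wild type. Its log2 fold change of -1.07 (SE 0.29) missed the threshold in edgeR (adjusted p = 0.0804) and passed it in DESeq2 (adjusted p = 0.00441), in edgeR with no filter (-1.08, adjusted p = 0.0205) and in edgeR without wild-type replicate 2 (-1.26, adjusted p = 0.0332). WRKY34, the more pollen-specific gene of the pair, had 67.1, 51.6 and 55.2 CPM in paps1-1 and 101, 68.9 and 111 CPM in wild type. The gap between the groups was narrow, since wild-type replicate 2 was only just above paps1-1 replicate 1, and the log2 fold change was -0.69 (SE 0.26, adjusted p = 0.295).

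In the MIKC* group, AGL104 had 30.4, 30.2 and 24.9 CPM in the paps1-1 libraries and 52.4, 57.9 and 79.6 CPM in the wild-type libraries. Every wild-type value was above every paps1-1 value, and without wild-type replicate 3 the log2 fold change was -0.98 and still passed (edgeR, adjusted p = 0.0343). Without any 1 of the paps1-1 libraries the call was lost, with log2 fold changes of -1.21, -1.22 and -1.06 and adjusted p of 0.0667, 0.0780 and 0.107 without replicates 1, 2 and 3. Its S-class paralog AGL66 had 38.3, 15.9 and 15.6 CPM in paps1-1, against 27.4, 45.4 and 59.0 CPM in wild type. Here paps1-1 replicate 1 lay above wild-type replicate 1, so the groups overlapped. The log2 fold change was -0.90 (SE 0.36, adjusted p = 0.328), and without paps1-1 replicate 1 it was -1.48 and passed (adjusted p = 0.0268). It also passed with no filter on low counts (-0.92, adjusted p = 0.0250).

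Of the P-class genes, AGL94 had 88.1, 74.8 and 45.0 CPM in paps1-1 and 98.2, 142 and 155 CPM in wild type. The groups did not overlap, with a log2 fold change of -0.93 (SE 0.30, adjusted p = 0.167) that passed with no filter on low counts (-0.95, adjusted p = 0.0385). AGL30 had 70.6, 72.9 and 46.1 CPM in paps1-1, against 64.4, 80.0 and 118 CPM in wild type. AGL65 had 42.6, 32.9 and 29.5 CPM in paps1-1, against 41.0, 48.2 and 54.8 CPM in wild type. For both, wild-type replicate 1 fell inside the paps1-1 range, and the log2 fold changes were -0.47 (SE 0.29, adjusted p = 0.667) and -0.45 (SE 0.24, adjusted p = 0.578). That of AGL30 was -0.29 without paps1-1 replicate 3 and -0.23 without wild-type replicate 3. In these TMM-scaled values all 5 MIKC* genes were highest within wild type in replicate 3 and lowest within paps1-1 in replicate 3. The order of the wild-type libraries depends on the scaling. AGL65 had 791 reads in wild-type replicate 2 and 781 in replicate 3, and AGL94 had 2328 and 2212. Reads counted in genes were fewer in replicate 2, at 13707799 against 19288861.

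AGL66 and AGL104 are the most alike in coding sequence of the pairs compared within families, which is shown because counts of similar genes can be hard to separate. Their coding sequences were identical at 81.9% of 966 aligned bases, and the longest stretch they shared without a mismatch was 38 bases, at chr1:29315529-29315566 (minus strand, TAIR10.1) in AGL66.
AGL66 and AGL104: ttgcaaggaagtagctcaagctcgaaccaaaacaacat
Read length is not given in the sources used here, so whether any read falls wholly within this stretch was not tested. The next longest were 32 bases between MYB97 and MYB120, whose coding sequences were identical at 77.0% of 1041 aligned bases, and 20 bases each between WRKY2 and WRKY34 and between MYB101 and MYB120. All other pairs within a family shared at most 14.

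**Figure D2:**
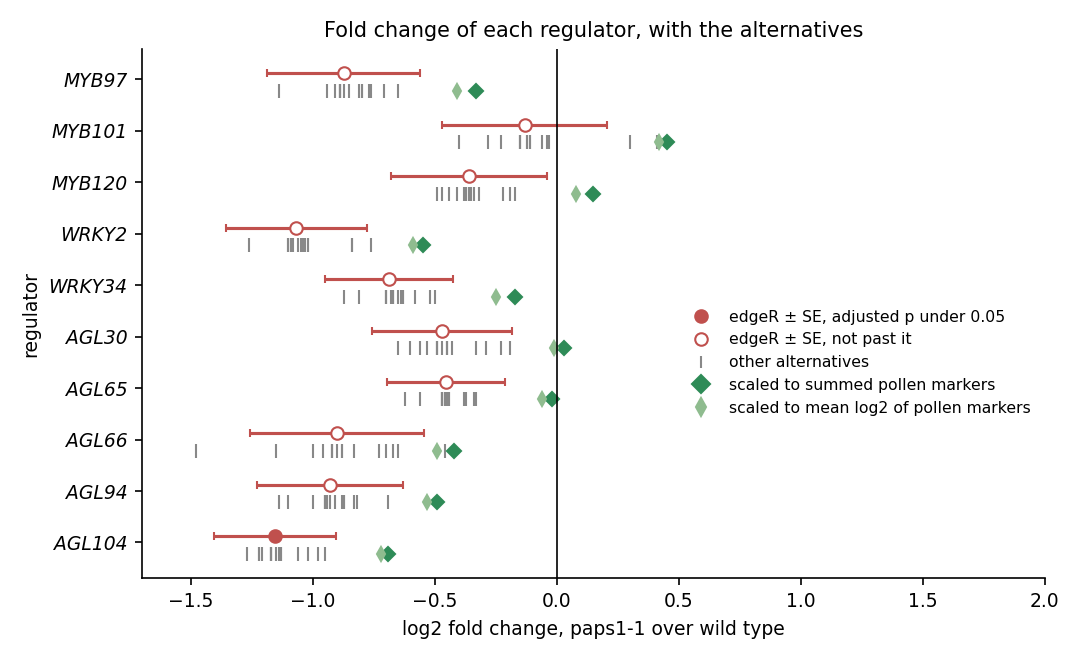
Log2 fold change of paps1-1 over wild type for each regulator, as circles with SE bars from edgeR (filled where the adjusted p was under 0.05) and, in the row beneath, grey ticks and green diamonds for the alternative settings. Only AGL104 is filled, at -1.15. Scaling to pollen markers (green) places all 10 genes further right, with MYB101 and MYB120 above 0 under both such scalings and AGL30 at 0.03 under one of them.

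Most pollen markers were also lower in paps1-1. Their summed level ordered the libraries otherwise than the summed regulators did. Within paps1-1 it was highest in replicate 3 (49266 CPM), where the summed regulators were lowest (1290.7 CPM). In wild-type replicate 2 it was the lowest of all libraries (30507 CPM). The summed regulators there, at 1695.5 CPM, were above the paps1-1 maximum of 1570.1 CPM. The mean log2 CPM of the 12 markers, which weighs each marker alike, gave another order. It was 8.357, 8.225 and 8.341 in paps1-1 replicates 1, 2 and 3. In wild-type replicates 1, 2 and 3 it was 8.582, 8.249 and 9.416. The part of pollen content in the regulators' levels was not tested by these orders. Of the 12 vegetative pollen markers 10 were negative on the log2 scale (median -0.53), and none was called. TIP5;1 (0.15, SE 0.35) and PRF4 (0.33, SE 0.25), an aquaporin and a profilin gene of pollen, were the 2 with positive values, and only TIP1;3 and ROPGEF8 had groups that did not overlap. Most of the summed marker level came from VGD1 and VGDH1. They had 20360 and 7899 of 31485 CPM in paps1-1 replicate 1, and 52210 and 20840 of 80061 CPM in wild-type replicate 3. When libraries were scaled to the summed reads of the 12 markers in place of TMM, the log2 fold change of AGL104 was -0.69 (edgeR, adjusted p = 0.896). No regulator was then called, beside 1.46% of all genes, while the median over all genes was 0.40. Such a scaling shifts all genes nearly alike, so differences from the median change little by construction and are no further support: AGL104 stood at -1.09 relative to it, against -1.18 under TMM, and WRKY2 at -0.95, against -1.10. With the difference between pollen and style markers as a covariate, AGL104 had a log2 fold change of -0.95 and did not pass (edgeR, adjusted p = 0.0683), beside 1.58% of all genes called. No regulator was called when libraries were scaled to the mean log2 level of the pollen markers (2.02% of all genes), or without wild-type replicate 3 and paps1-1 replicate 2 together (1.28%).

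The family sums showed the same libraries apart. The 2 WRKY genes together had 195, 185 and 196 CPM in paps1-1, against 371, 270 and 482 CPM in wild type, with no overlap. The 5 MIKC* genes together had 270, 227 and 161 CPM in paps1-1, against 284, 373 and 466 CPM in wild type, again with no overlap. Within them the S-class pair averaged 51.7 ± 14.9 CPM in paps1-1 and 107 ± 29.6 CPM in wild type, and the P-class genes 168 ± 41.9 CPM in paps1-1 and 267 ± 62.1 CPM in wild type (SD, n = 3). The 3 MYB genes together had 1105, 1126 and 934 CPM in paps1-1, against 1393, 1052 and 1785 CPM in wild type, where replicate 2 lay inside the paps1-1 range. Wild-type replicate 2 is the wild-type library whose marker balance fell within that of paps1-1. It had 202 CPM of WRKY2, above the paps1-1 maximum of 141, and 57.9 CPM of AGL104, above the paps1-1 maximum of 30.4, while its 187 CPM of MYB97 was below the paps1-1 maximum of 188. These are values of 1 library, and the part of marker balance in the differences was not tested by them.

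**Figure D3:**
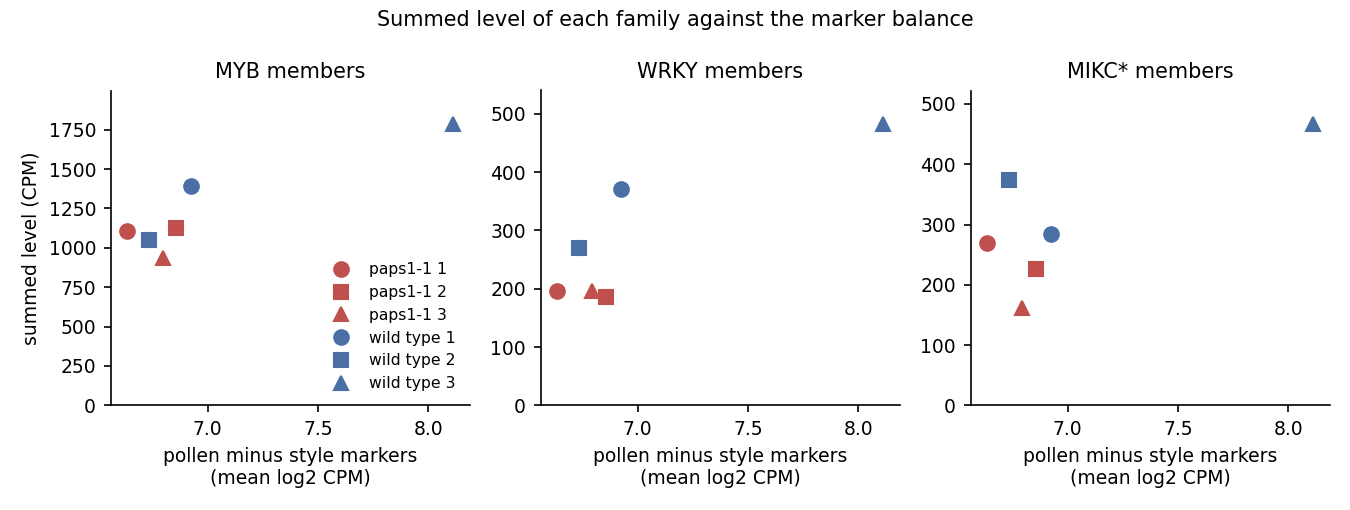
Summed CPM of each family (y axis) against the mean log2 CPM of pollen markers less that of style markers (x axis) in each library, paps1-1 in red and wild type in blue. Wild-type replicate 3, at 8.11, lies to the right of the other 5 libraries (6.63 to 6.92) and has the highest TMM-scaled sum in all 3 panels. Among the others the WRKY and MIKC* sums are higher in wild type than in paps1-1.

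The make-up of each family was then compared, since shares within a family do not depend on library scaling. No test was made of these shares, and their overlap has no background over all genes here. The shares of a family depend on one another by construction, so they are not separate results. WRKY2 made up 65.7%, 72.1% and 71.8% of the WRKY reads in paps1-1, against 72.8%, 74.5% and 77.1% in wild type, and the groups did not overlap. The S-class genes AGL66 and AGL104 made up 25.4%, 20.3% and 25.1% of the MIKC* reads in paps1-1, against 28.2%, 27.7% and 29.7% in wild type. AGL104 by itself had 13.3% ± 2.09 in paps1-1 and 17.0% ± 1.49 in wild type (SD, n = 3). Its groups did not overlap but nearly met, at 15.45% in paps1-1 replicate 3 and 15.5% in wild-type replicate 2. AGL66 overlapped at 10.3% ± 3.62 in paps1-1 and 11.5% ± 1.59 in wild type. Shares did not divide by class. Of the P-class genes, AGL30 had 29.0% ± 3.01 in paps1-1 and 23.1% ± 1.97 in wild type. AGL65 had 15.8%, 14.5% and 18.3% in paps1-1, against 14.5%, 12.9% and 11.7% in wild type. AGL94 had 31.2% ± 2.80 in paps1-1 and 35.3% ± 2.45 in wild type. Each was without overlap, though the groups nearly met for AGL65 and AGL94. The closest shares were 14.53% in paps1-1 and 14.48% in wild type for AGL65, and 32.99% in paps1-1 and 33.25% in wild type for AGL94. Within the S-class pair the share of AGL104 overlapped, at 57.1% ± 11.3 in paps1-1 and 59.7% ± 5.18 in wild type. Within the P-class genes the share of AGL30 overlapped, at 37.9% ± 2.65 in paps1-1 and 32.4% ± 3.26 in wild type, as did that of AGL65. That of AGL94 did not, at 40.8% ± 3.25 in paps1-1 and 49.35% ± 2.80 in wild type. Among the MYB genes MYB120 held most of the reads in every library, at 64.0% ± 8.54 in paps1-1 and 62.8% ± 6.22 in wild type (SD, n = 3), and the shares of all 3 overlapped.

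**Figure D4:**
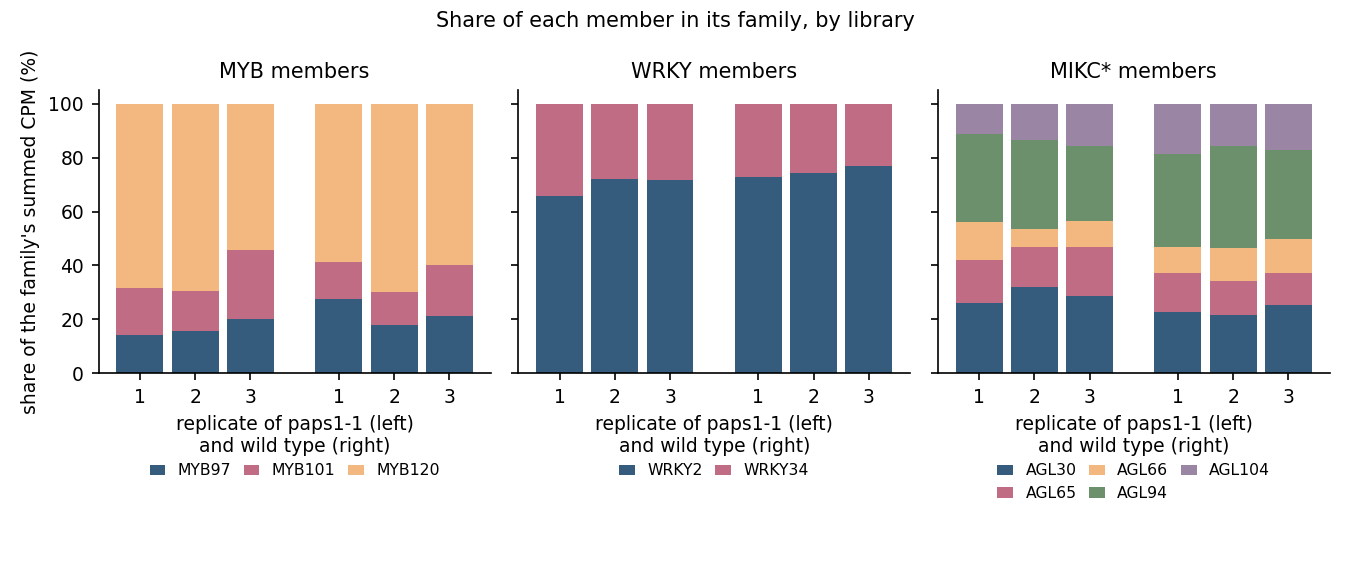
Share of each member in the summed CPM of its family (%), one bar per library, with the 3 paps1-1 libraries to the left of the 3 wild-type libraries in each panel. WRKY2 holds 65.7% to 72.1% in paps1-1 and 72.8% to 77.1% in wild type, and AGL104 11.3% to 15.5% in paps1-1 and 15.5% to 18.5% in wild type.

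Levels can be ordered between genes only per length, for which CPM were divided by the annotated exon length in kilobases. In paps1-1 the order of mean CPM per kilobase was MYB120 (391), MYB97 (107), MYB101 (106), WRKY2 (44.2), AGL94 (36.4), WRKY34 (34.0), AGL30 (27.1), AGL104 (22.4), AGL65 (16.2) and AGL66 (15.6). In wild type it was MYB120 (501), MYB97 (195), MYB101 (116), WRKY2 (92.6), AGL94 (69.2), WRKY34 (54.8), AGL104 (49.8), AGL30 (37.5), AGL66 (29.5) and AGL65 (22.2). MYB120 stood clear of the next gene in both genotypes, at 391 ± 87.6 CPM per kilobase in paps1-1 and 501 ± 99.4 in wild type (SD, n = 3). MYB101 stood clear of WRKY2 in paps1-1 but not in wild type, and all other neighbours in either order had libraries that overlapped. Among 18297 tested genes with an exon length, MYB120 ranked 181 in paps1-1 and 173 in wild type, AGL104 ranked 2799 in paps1-1 and 1538 in wild type, and AGL65 ranked 3684 in paps1-1 and 2965 in wild type.

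The other genes of these pathways were read from lists, and no member of them was called in edgeR apart from a sperm marker. MYB33 and MYB65, GAMYB-like genes that act redundantly in anther development, averaged 1.92 ± 0.443 and 1.92 ± 0.730 CPM in paps1-1 and 2.08 ± 0.221 and 1.98 ± 0.929 CPM in wild type (SD, n = 3). MYB81 and MYB104 had no read in any library. Of the microRNA precursors only MIR159B was tested, with a log2 fold change of 0.20 (SE 0.49) at means under 1 CPM. These GAMYB-like genes were thus counted at far lower levels than MYB97, MYB101 and MYB120 in the same libraries.

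Of 9 other group I WRKY genes 8 were tested, 4 with positive and 4 with negative log2 fold changes and a median of 0.00. WRKY3, linked to defence against necrotrophs, had 23.8, 21.2 and 20.6 CPM in paps1-1 and 11.6, 14.0 and 16.8 CPM in wild type, without overlap and opposite in sign to WRKY2 (log2 fold change 0.63, SE 0.24, edgeR adjusted p = 0.287). WRKY33, an immune regulator, had 255 ± 33.6 CPM in paps1-1 and 199 ± 39.0 CPM in wild type (SD, n = 3; log2 fold change 0.36, SE 0.28), and WRKY26 averaged about 1 CPM or less (-0.66, SE 0.54). Of 5 genes tied to WRKY34 all were tested. The pollen bZIP gene BZIP34 had a log2 fold change of -0.60 (SE 0.28), the kinase gene MPK6 one of -0.44 (SE 0.32), the kinase gene MPK3 one of 0.24 (SE 0.25) and the plastid glucose 6-phosphate transporter gene GPT1 one of 0.13 (SE 0.24). VQ20, a partner of WRKY34 and WRKY2 in pollen, was at 0.387 ± 0.260 CPM in paps1-1 and 0.670 ± 0.242 CPM in wild type (SD, n = 3).

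AGL67 and AGL33, further MIKC* genes, had at most 2 reads in any library, so the 5 described held nearly all reads of the group. AGL18, a MADS-box gene of pollen outside MIKC*, had 57.5, 49.5 and 40.9 CPM in paps1-1 and 42.4, 56.9 and 106 CPM in wild type (log2 fold change -0.47, SE 0.31), and AGL29 had a log2 fold change of -1.17 (SE 0.56) near 1 CPM. Of 8 tested pollen transcription factor genes of other families 7 were negative on the log2 scale, and the median was -0.47. BZIP18 had 33.4, 31.4 and 32.0 CPM in paps1-1 and 51.5, 35.1 and 94.7 CPM in wild type (-0.90, SE 0.31, edgeR adjusted p = 0.214), BZIP52 had a log2 fold change of -0.66 (SE 0.28), and LBD27, a LOB-domain gene of developing pollen, one of -1.04 (SE 0.41) near 1 CPM. Wild-type replicate 3 was again the highest library of BZIP18 and AGL18.

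Genes that keep the tube wall and membrane intact had a median log2 fold change of -0.30 over 14 tested, 12 of them negative. LRX11, a leucine-rich repeat extensin of the tube wall, had 1892, 1682 and 1320 CPM in paps1-1 and 3136, 1748 and 3641 CPM in wild type (-0.80, SE 0.37), and the calcium channel gene CNGC18 had a log2 fold change of -0.60 (SE 0.30). RBOHJ, an NADPH oxidase gene, had the opposite sign (0.71, SE 0.30). None of these passed. Sperm markers differed from the regulators in sign: all 6 tested were positive on the log2 scale (median 0.86), and DAZ2, a regulator of sperm differentiation, rose by 1.95 on the log2 scale (SE 0.31, edgeR adjusted p = 0.00180).

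The genes most like the leading member of each family were sought among the 11933 tested genes whose log2 CPM averaged 2 or more, by Pearson's r of log2 CPM over the 6 libraries. The 6 libraries share the genotype difference and the marker balance with every gene, so r describes these libraries only. Closest to MYB120 were AT2G47350 (r = 0.993), which encodes a HIT zinc finger and PAPA-1-like domain protein, BETAG4 (0.987) and AT1G73510 (0.987), which is uncharacterised. Closest to WRKY2 were AT1G53400 (0.999), a ubiquitin-domain protein gene, 5PTase14 (0.997) and LBA1 (0.995), an RNA helicase gene. Closest to AGL94 were AT3G13660 (0.996), a dirigent-like protein gene, AT5G03495 (0.995), which encodes an RNA-binding protein, and AT4G28150 (0.992).

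Place in the genome was examined because called genes were unevenly spread, at 3.18% of tested genes on chromosome 1, 1.29% on 2, 4.37% on 3, 1.19% on 4 and 1.08% on 5. The 10 genes lie on chromosomes 1 (4 MIKC* genes), 2, 4 and 5, and PAPS1 (AT1G17980) is on chromosome 1. In RefSeq's TAIR10.1 AGL104 spans chr1:7812211-7814345 (minus strand, 10 coding exons), AGL65 chr1:6466667-6469984 (plus strand, 10), AGL66 chr1:29314841-29317186 (minus strand, 10) and AGL94 chr1:26145001-26147751 (minus strand, 9). AGL30 spans chr2:901061-904149 (plus strand, 10), WRKY2 chr5:22779614-22783426 (plus strand, 4 coding exons) and WRKY34 chr4:13357596-13359551 (minus strand, 4). MYB97 spans chr4:13527578-13529429 (plus strand, 3 coding exons), MYB101 chr2:13782107-13784483 (minus strand, 3) and MYB120 chr5:22324599-22326418 (minus strand, 2). Of the 100 tested genes nearest in locus order, 50 on each side, 9 were called around AGL65 and 7 around AGL104, against 0 to 2 around each of the other 8 and 5 around PAPS1. AGL65 is 61 and AGL104 is 309 tested genes from PAPS1, and AGL94 and AGL66 are 2572 and 3216. For AGL65 and AGL104, genotype and nearness to PAPS1 cannot be told apart. The neighbours counted around AGL65 and around PAPS1 are partly the same genes, so their counts of 9 and 5 are not separate. Of the 7 called neighbours of AGL104, 3 were higher and 4 were lower, and the median log2 fold change of its 100 neighbours was 0.03. PAPS1 itself had 88.3, 99.3 and 59.8 CPM in paps1-1 and 143, 101 and 104 CPM in wild type (log2 fold change -0.49, SE 0.28, edgeR adjusted p = 0.609).

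Promoters were searched for motifs these proteins are known to bind, in the 250 bases before to 50 bases after the annotated gene start of TAIR10.1, on both strands. The W-box core TTGAC, bound by WRKY proteins, was found in 4 of the 10 promoters and in 50.5% of 27444 protein-coding promoters. The N10-type CArG box, bound by MIKC* proteins, was found in 1 of the 10 and in 2.49% of all. The 1 promoter with it was that of AGL104, and the box, in capitals, starts 97 bases before the gene start within chr1:7814393-7814482 (minus strand).
AGL104: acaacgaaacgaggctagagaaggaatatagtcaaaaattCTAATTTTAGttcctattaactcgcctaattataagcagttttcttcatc
A match of letters is no measure of binding. The W-box core in this stretch, gtcaa on the strand printed, lies outside the CArG box.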

How the data were processed

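The deposited values are read counts per gene, whole numbers in 1 table per library, laid out as STAR writes gene counts. Per the submitters' processing notes, STAR and the TAIR10 genome were used by the authors. Their version, annotation and settings: not given in the sources used here. Per the labels' protocols, RNA came from the PicoPure kit with DNase treatment, followed by mRNA library preparation and HiSeq2000 sequencing. Both strands had nearly equal totals (ratio 1.02 to 1.07), so unstranded counts were used. Reads naming no gene were left out: 1.32% to 4.36% of reads were unmapped, 7.28% to 74.6% multi-mapping, 2.71% to 9.93% outside genes and 0.228% to 1.65% ambiguous. No 2 libraries of a genotype agreed within sampling noise (chi-square per degree of freedom 56.5 to 136.5).

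The filterByExpr rule of edgeR 4.0.16 (minimum count 10) left 18317 genes, which were scaled by TMM and compared with the quasi-likelihood test (R 4.3.3), two-sided, with Benjamini-Hochberg adjustment over all of them and a threshold of 0.05. SE is the log2 fold change divided by the root of F. limma 3.58.1 (voom), DESeq2 1.42.0, other scalings, filters, left-out libraries, the replicate number as a block and a marker covariate were alternatives. Sequences, exon lengths and names came from RefSeq's TAIR10.1, which matched 32835 of 33323 identifiers; the count tables hold no coordinates. Identities came from Biopython 1.88 global alignments.

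The members, lists and tests were chosen with earlier results of these data known. Named besides the members are PAPS1, the called genes and the 3 with the smallest p of each list, and the 3 genes most like the most abundant member of each family; of the WRKY34 list all 5 are named, and of the marker lists those that a result touches, chosen after their values were seen. Depth limits precision: 75 reads of AGL66 in paps1-1 replicate 2 was the lowest member count.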

Additional observations from a re-analysis of the deposited data

How the results depend on the processing

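Of 180 fits of single regulators under alternatives, 158 kept their direction and their side of the threshold. For every regulator but AGL104 this means only that it stayed uncalled with the same sign. AGL104 was called in 11 of 18 alternatives, with adjusted p from 0.000971 (DESeq2) to 0.896. The count of regulators called was 4 with no filter on low counts (AGL104 and, newly, AGL94 at -0.95, AGL66 at -0.92 and WRKY2 at -1.08), 2 with DESeq2 (AGL104, and WRKY2 at -1.09), and 0 with both pollen marker scalings, the marker covariate and without wild-type replicate 3 and paps1-1 replicate 2 together. There AGL104 stood at -0.69 (summed markers), -0.72 (mean log2 of markers, chosen after seeing the data), -0.95 and -1.02. With 1 library left out the regulators called numbered 0 to 3. The log2 fold change then ranged from -1.27 to -0.98 for AGL104, -1.48 to -0.65 for AGL66 (-0.46 without both libraries), -1.14 to -0.71 for MYB97, -1.26 to -0.84 for WRKY2, -0.40 to 0.30 for MYB101, -0.49 to -0.19 for MYB120, -0.65 to -0.23 for AGL30, -0.62 to -0.34 for AGL65, -1.14 to -0.69 for AGL94 and -0.87 to -0.58 for WRKY34. Without wild-type replicate 2, MYB97 (-1.14) and WRKY2 (-1.26) were called too. The sign turned for MYB101 with summed markers (0.45), mean log2 of markers (0.42), the covariate (0.41), without wild-type replicate 3 (0.30) and without both libraries (0.42), for MYB120 with both marker scalings (0.15 and 0.08) and for AGL30 with summed markers (0.03). The cause was not tested, except that the marker scalings moved the median of all genes to 0.40 and 0.39. Genes called over all numbered 429, and 267 with summed markers (203 higher, 64 lower), 370 with mean log2 of markers (284 higher, 86 lower), 1042 with no filter, 216 with at least 5 CPM in 3 libraries, 237 without both libraries and 333 to 456 with 1 left out. Of the 429, 49.7% were higher; this was 38.2% with DESeq2, 62.1% with the covariate, 64.0% without paps1-1 replicate 3 and 61.5% without wild-type replicate 3.

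Mean paps1-1 levels moved by over 1 SD with summed markers, to 205 CPM for MYB97, 845 for MYB120, 160 for WRKY2, 70.4 for WRKY34, 78.5 for AGL30, 43.1 for AGL65, 34.8 for AGL104, 1286 for the MYB sum and 231 for the WRKY sum. With mean log2 of markers this held for MYB97 (201), WRKY2 (157), WRKY34 (67.4), AGL104 (33.3), the MYB sum (1232) and the WRKY sum (224). With replicate number as a block 482 genes were called, 403 of them among the 429, AGL104 had -1.13 (edgeR, adjusted p = 0.0414) and no other regulator was called. Samples with the same number did not deviate together (correlations -0.256, 0.126 and -0.151), so the numbers are not taken as pairs.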
